A study of Homo sapiens with 6 samples.

Results

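The transcripts of 10 genes for secreted matrix glycoproteins and small proteoglycans were followed in 12Z cells after depletion of BRG1. The genes were chosen by name, with earlier results of these data known. They were the leucine-rich proteoglycans LUM, DCN and BGN, the fibrillins FBN1 and FBN2, fibronectin FN1, the matricellular proteins POSTN, TNC and SPARC, and the large proteoglycan VCAN. All 10 were found among the 58336 gene identifiers of the count tables, and all 10 passed the count filter with the 15830 genes tested. 12Z is an established human endometriotic epithelial cell line. The siBRG1 group held 3 libraries of cells given 50 nM siRNA against SMARCA4, the gene of BRG1, an ATPase of SWI/SNF chromatin remodelling complexes. The control group held 3 libraries of cells given a non-targeting siRNA. All 6 came from the same line at 72 h after transfection and, per the labels' protocols, from cells moved to medium with 0.5% serum at 48 h. The protocol text, shared by all samples, also mentions a drug or vehicle treatment, and no sample label names a drug.

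The matrix around cells is built from collagens together with glycoproteins and proteoglycans that organise them. Small leucine-rich proteoglycans bind collagen fibrils and set their spacing. Fibrillins polymerise into microfibrils that carry elastin and latent TGF-beta, fibronectin is assembled into fibrils through integrins, and matricellular proteins such as tenascin-C, periostin and SPARC modulate how cells adhere. In tissue these genes are best known from fibroblasts, including those of the endometrial stroma, and many are also expressed by epithelial lines with mesenchymal features.

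Counts assigned to genes lay between 12391161 and 13369692 in the siBRG1 libraries and between 40228678 and 49720320 in the control libraries. Levels are given as CPM, counts scaled to 1e6 per library after TMM normalisation, and log2 ratios compare siBRG1 with control (positive where siBRG1 was higher), each followed by its standard error (SE). Adjusted p-values come from edgeR's quasi-likelihood test over all genes tested, with calls made under 0.05. All control libraries are labelled as reused from a previous deposit and no siBRG1 library is, so the knockdown and the deposit cannot be told apart in any difference below. Whether replicates came from separate cultures is not stated, so that p-values reflect only library-to-library spread, possibly technical. SMARCA4 stood at 60.5, 78.9 and 50.6 CPM in the siBRG1 libraries and at 244, 266 and 262 CPM in the control libraries (log2 ratio −2.03, SE 0.161; adjusted p = 0.000267), lower in the group whose label names the knockdown. Reads mapped to several places made up 18.5% to 21.5% of all reads in siBRG1 libraries and 9.57% to 10.0% in control libraries, and reads in no annotated gene 3.85% to 4.20% in siBRG1 libraries and 12.8% to 13.6% in control libraries. The histone gene HIST1H1B averaged 1.86 ± 0.634 CPM in siBRG1 and 707 ± 25.9 CPM in control, and the small nucleolar RNA gene SNORA73B 0.385 ± 0.143 CPM in siBRG1 and 52.0 ± 4.56 CPM in control (SD, n = 3). The part of these differences between the libraries in the results was not tested. All 8 epithelial markers were tested, and 4 rose and 2 fell. KRT8 averaged 1655 ± 46.3 CPM in siBRG1 and 1556 ± 12.8 CPM in control, a small rise (log2 ratio 0.09), and KRT18, which did not pass, 1296 ± 93.0 CPM in siBRG1 and 1343 ± 22.9 CPM in control (SD, n = 3). KRT19 fell (609 ± 14.4 CPM in siBRG1 and 883 ± 20.4 CPM in control), as did KRT7 (36.9 ± 4.50 CPM in siBRG1 and 196 ± 9.10 CPM in control). EPCAM, CDH1 and CLDN4 rose, all at low levels of 1.61, 5.87 and 1.51 CPM in siBRG1 and 0.251, 3.05 and 0.626 CPM in control, and MUC1 did not pass.

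Between the groups, 7 of the 10 genes were higher in siBRG1 (LUM, DCN, BGN, POSTN, FBN1, SPARC and FBN2) and 3 were lower (TNC, VCAN and FN1). Over all genes tested, 36.1% were called higher and 36.5% lower, together 72.6%, so a call by itself was common in this comparison. At least 2-fold changes were found for LUM, DCN, BGN, POSTN, TNC and VCAN, 6 of the 10. Of all genes tested, 21.6% were called and at least 2-fold (10.4% higher and 11.1% lower). The 10 genes were chosen with earlier results of these data known, so these values are a description and no test of the set. POSTN was only just 2-fold (log2 ratio 1.00), with 0.98 in the authors' deposited table and 0.90 to 1.08 over other settings. VCAN was at −0.96 without siBRG1 replicate 2, and FBN1 at 1.01 with GC and length trends removed. For each of the 10 the 3 siBRG1 libraries did not overlap with the 3 control libraries, which was also true of 74.3% of all genes tested. The median log2 ratio of all genes tested was −0.01. In bulk RNA a change in the number of cells of a kind and a change in RNA per cell cannot be told apart. In the authors' deposited table all 10 had the same direction with adjusted p-values under 0.05. The unshrunken log2 ratios there differed from those given here by at most 0.0322. It also gives shrunken log2 ratios, with 1.96 for DCN, 1.56 for BGN and −1.11 for VCAN, the farthest from the values given here.

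**Figure D1:**
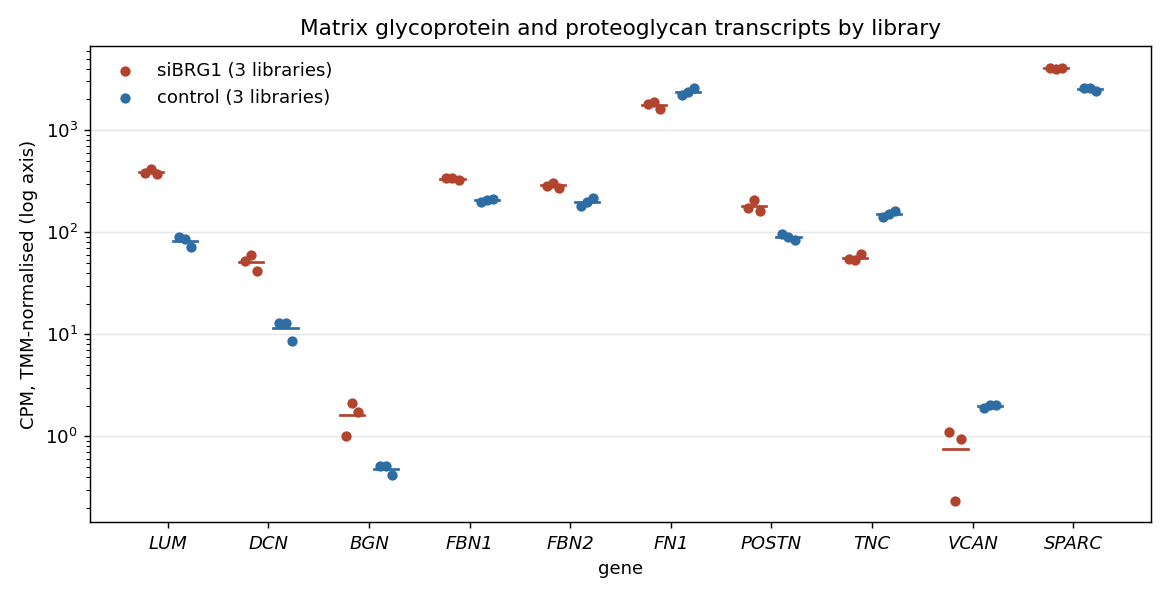
CPM on a log axis for the 10 genes, with a point per library (siBRG1 in red, control in blue, 3 libraries each) and a bar at each group mean. The groups do not overlap for any gene, the widest gap is that of LUM, and VCAN and BGN lie near 1 CPM.

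The small leucine-rich proteoglycans rose the most. LUM encodes lumican, a keratan sulfate proteoglycan of collagen fibrils (ENSG00000139329.4, chromosome 12, 91102629 to 91111831, minus strand, GRCh38). Its level was 377, 416 and 374 CPM in siBRG1, against 89.2, 85.3 and 72.5 CPM in control. Each siBRG1 library thus stood far above the highest control library. The log2 ratio was 2.24 (SE 0.0655; adjusted p = 6.03e-14), a 4.72-fold rise. DCN encodes decorin, a dermatan or chondroitin sulfate proteoglycan that binds collagen and TGF-beta (ENSG00000011465.16, chromosome 12, 91140484 to 91183123, minus strand). It had 52.6, 60.0 and 41.8 CPM in siBRG1 and 13.0, 12.9 and 8.63 CPM in control. The lowest value of each group came from replicate 3, and the groups remained apart. The log2 ratio was 2.15 (SE 0.214; adjusted p = 0.000296). BGN encodes biglycan, the close relative of decorin (ENSG00000182492.15, chromosome X, 153494939 to 153509554, plus strand). It was near the limit of the data, with 14, 27 and 22 counts in siBRG1 and 25, 20 and 17 counts in control from the deeper libraries. As CPM these were 1.02, 2.12 and 1.73 in siBRG1 and 0.515, 0.510 and 0.423 in control, a log2 ratio of 1.73 (SE 0.357; adjusted p = 9.63e-05). HAUS7, which overlaps BGN on the opposite strand, summed to 26 counts in siBRG1 and 161 in control in the stranded column used.

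LUM and DCN lie next to each other, 28.7 kb apart on the minus strand of chromosome 12. Within 500 kb on either side the annotation holds 3 more protein-coding genes. KERA and EPYC, which encode the further leucine-rich proteoglycans keratocan and epiphycan, summed to 0 counts each in siBRG1 and 1 count each in control, and CCER1 had 0 in both groups. Most counts of LUM, DCN and BGN together came from LUM. DCN made up 11.6 ± 1.39% of their sum in siBRG1 and 12.1 ± 1.35% in control (SD, n = 3), a difference within the spread between libraries (exact two-sided permutation p = 0.5). LUM took 88.0 ± 1.37% in siBRG1 and 87.4 ± 1.35% in control. Without siBRG1 replicate 3 the difference in the DCN share changed from −0.524 to 0.273 percentage points. BGN made up 0.364 ± 0.111% in siBRG1 and 0.512 ± 0.00951% in control, with 0.237%, 0.443% and 0.413% in the siBRG1 libraries, all below the 0.501%, 0.516% and 0.518% in control, and the two-sided p of an exact permutation test was 0.1, the smallest that 3 against 3 allow.

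Both fibrillins rose modestly. FBN1 encodes fibrillin-1, the main microfibril protein of postnatal tissue (ENSG00000166147.13, chromosome 15, 48408306 to 48645849, minus strand). Its level was 337, 338 and 327 CPM in siBRG1, against 199, 207 and 213 CPM in control. The spread within each group was small, with a coefficient of variation of 1.76% in siBRG1 and 3.36% in control. The log2 ratio was 0.69 (SE 0.0381; adjusted p = 1.15e-15). FBN2 encodes fibrillin-2, which is most prominent in development (ENSG00000138829.11, chromosome 5, 128257909 to 128659185, minus strand). It had 284, 305 and 274 CPM in siBRG1 and 180, 198 and 215 CPM in control, a log2 ratio of 0.54 (SE 0.0512; adjusted p = 1.25e-09). The FBN2 part of the fibrillin counts averaged 46.2 ± 1.06% for siBRG1 and 48.9 ± 1.35% for control (SD, n = 3). Library by library this share was 45.7%, 47.5% and 45.6% in siBRG1 and 47.5%, 48.9% and 50.2% in control (two-sided p = 0.1 by exact permutation, the lowest attainable), so the highest siBRG1 and the lowest control library nearly met. With unstranded counts the exact two-sided permutation p was 0.2.

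Of the adhesive and matricellular glycoproteins POSTN rose, TNC and FN1 fell, and SPARC rose. For POSTN, TNC and FN1 the RefSeq promoter sequence is shown, since these genes went in opposite directions and their starts differ in base composition. RefSeq promoters (GRCh38.p14, from 250 bases before to 50 bases after the start) were found for 8 of the 10 genes, all except LUM and DCN. GC content of this window was 39.0% for POSTN, 57.3% for TNC and 76.7% for FN1, with a median of 58.7% over 35116 promoters. For the other genes that rose it was 71.7% (BGN), 68.3% (FBN1), 72.7% (FBN2) and 61.3% (SPARC). For VCAN, which fell, it was 60.3%. High GC content was thus found with rises and with falls. The 5 motifs searched, on both strands, were the AP-1 motif TGANTCA, the cAMP response element TGACGTCA, the motif of TEAD factors GGAATG, the TATA box TATAAA and the CCAAT box, and no matches overlapped in the stretches shown. Each stretch is upstream of both the RefSeq and the GENCODE start, on the minus strand, and capitals mark the matches.
POSTN, chr13:37598845-37599018: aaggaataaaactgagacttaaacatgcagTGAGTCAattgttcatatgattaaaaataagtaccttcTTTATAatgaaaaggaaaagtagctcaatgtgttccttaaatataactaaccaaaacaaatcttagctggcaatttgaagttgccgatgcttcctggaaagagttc
TNC, chr9:115118258-115118407: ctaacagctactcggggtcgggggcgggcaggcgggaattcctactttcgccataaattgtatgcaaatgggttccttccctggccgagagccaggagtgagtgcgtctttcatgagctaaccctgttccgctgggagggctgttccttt
FN1, chr2:215436173-215436318: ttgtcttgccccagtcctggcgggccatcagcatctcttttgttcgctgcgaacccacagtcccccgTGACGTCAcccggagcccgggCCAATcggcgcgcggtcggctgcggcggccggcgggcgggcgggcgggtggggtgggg
The stretch of POSTN holds TGAGTCA, an AP-1 match found in 1 of the 8 windows and in 7.71% of all promoters, and TATAAA read on the other strand, which 11.5% of all promoters hold. In FN1 the cAMP response element, found in 1.85% of all promoters, and a CCAAT box, found in 34.6%, were present. The window of FBN2, which rose, also held a CCAAT box. None of the 5 motifs was found in the TNC window. GGAATG was found for FBN1 and SPARC, and in 14.0% of all promoters. A match describes the letters alone.

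POSTN encodes periostin, a matricellular protein that binds collagen, fibronectin and tenascin-C (ENSG00000133110.14, chromosome 13, 37562583 to 37598844, minus strand). It stood at 174, 207 and 160 CPM in siBRG1 and 95.7, 89.2 and 84.2 CPM in control. The lowest siBRG1 library was still well above the highest control library, and the log2 ratio was 1.00 (SE 0.0885; adjusted p = 4.89e-06). TNC encodes tenascin-C, a large hexameric glycoprotein of remodelling and wounded tissue (ENSG00000041982.15, chromosome 9, 115019578 to 115118257, minus strand). It had 55.1, 53.5 and 60.8 CPM in siBRG1, against 140, 152 and 162 CPM in control. With a log2 ratio of −1.42 (SE 0.0565; adjusted p = 6.88e-19) it fell 2.68-fold, and the groups were far apart. Fibronectin, the product of FN1, links integrins to collagen and to growth factors (ENSG00000115414.18, chromosome 2, 215360440 to 215436172, minus strand). FN1 was at 1797, 1883 and 1626 CPM in siBRG1 and at 2219, 2382 and 2563 CPM in control, a log2 ratio of −0.43 (SE 0.0503; adjusted p = 4.31e-08). After removal of the trends with GC content and length, FN1 differed by −0.17 on the log2 scale (adjusted p = 0.00685).

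SPARC encodes osteonectin, a collagen-binding matricellular protein (ENSG00000113140.10, chromosome 5, 151661096 to 151687165, minus strand). It had the highest level of the 10 per exonic length, with 4030, 3961 and 4105 CPM in siBRG1 and 2603, 2606 and 2444 CPM in control. The log2 ratio was 0.66 (SE 0.0381; adjusted p = 3.52e-15), a 1.58-fold rise, and the values of each group lay close together. VCAN encodes versican, the large chondroitin sulfate proteoglycan that binds hyaluronan (ENSG00000038427.15, chromosome 5, 83471465 to 83582303, plus strand). It was barely detected, with 15, 3 and 12 counts in siBRG1 and 93, 80 and 82 counts in control. These were 1.09, 0.235 and 0.941 CPM in siBRG1 and 1.91, 2.04 and 2.04 CPM in control. The siBRG1 libraries varied far more than the control libraries, and each stayed below every control library. The log2 ratio of VCAN was −1.38 (SE 0.334; adjusted p = 0.000574), or −0.96 without siBRG1 replicate 2, the library with 3 counts (adjusted p = 0.00701).

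**Figure D2:**
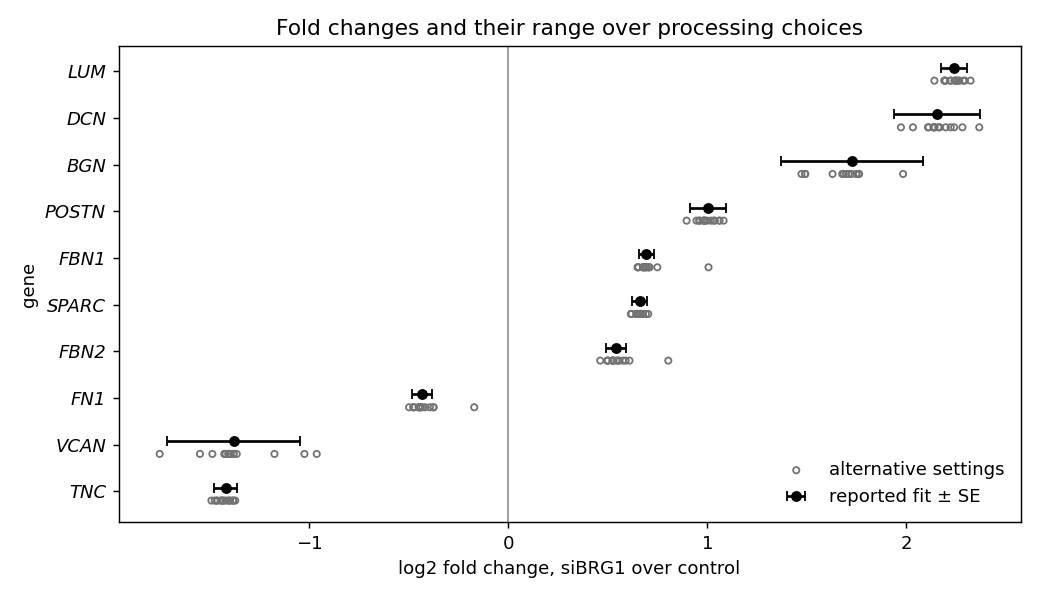
Log2 ratio of each gene, siBRG1 over control (x axis), as reported with its SE (black) and under the alternative settings (open grey, 15 per gene and 14 for BGN). Every open point lies on the same side of 0 as its gene, and those farthest from the reported value for FBN1, FBN2 and FN1 come from removing GC and length trends.

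Together the 10 genes took up 0.728 ± 0.0104% of all gene counts of a siBRG1 library and 0.553 ± 0.00992% of a control library (SD, n = 3; two-sided p = 0.1 by exact permutation, the lowest attainable). The sum, in which a longer transcript gives more counts, was mostly SPARC and FN1. SPARC took 56.8 ± 2.04% of the sum in siBRG1 and 44.9 ± 2.33% in control. FN1 took 24.9 ± 1.41% in siBRG1 and 42.0 ± 2.25% in control. LUM took 5.47 ± 0.245% of the sum in siBRG1 and 1.45 ± 0.179% in control, and TNC took 0.796 ± 0.0682% in siBRG1 and 2.66 ± 0.144% in control. These values describe the make-up of the sum and were not tested.

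**Figure D3:**
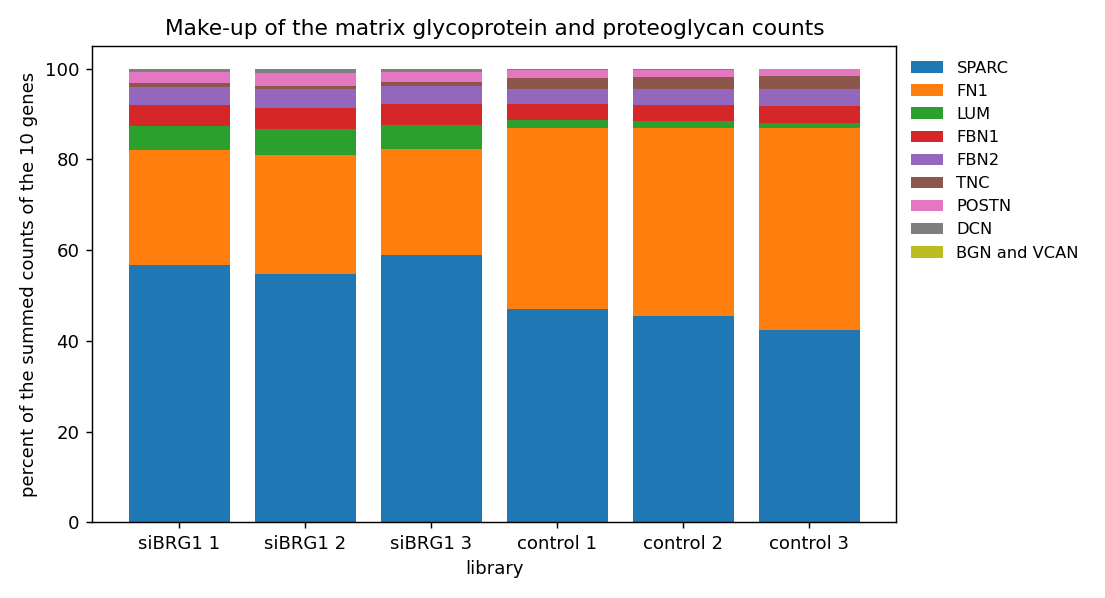
Percent of the summed counts of the 10 genes that each gene took (y axis) in each library, 3 siBRG1 on the left and 3 control on the right. SPARC exceeds 50% in the siBRG1 libraries, FN1 exceeds 40% in the control libraries, and the LUM band is wider in siBRG1.

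Levels of different genes were compared as TPM over the exonic length of each gene in GENCODE 29. In siBRG1 the order was SPARC (3434 ± 91.3 TPM), LUM (532 ± 27.3), FN1 (420 ± 27.7), POSTN (135 ± 16.9), FBN2 (89.6 ± 4.22), FBN1 (85.6 ± 0.966), TNC (24.1 ± 1.83), DCN (16.5 ± 2.80), BGN (2.72 ± 0.918) and VCAN (0.210 ± 0.128), each mean ± SD with n = 3. The ranges of FBN2 and FBN1 overlapped, and those of the other neighbours did not. In control it was SPARC (1950 ± 77.4 TPM), FN1 (509 ± 34.5), LUM (101 ± 11.1), POSTN (60.7 ± 4.16), TNC (58.0 ± 4.02), FBN2 (55.3 ± 4.59), FBN1 (47.5 ± 1.39), DCN (3.32 ± 0.732), BGN (0.727 ± 0.0804) and VCAN (0.497 ± 0.0159). There POSTN and TNC overlapped, as did TNC and FBN2. TNC thus stood beside the fibrillins in control and below them in siBRG1, and LUM stood above FN1 in siBRG1. The place of LUM rests on the length used: over the longest transcript FN1 had 572 TPM and LUM 383 TPM in siBRG1.

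**Figure D4:**
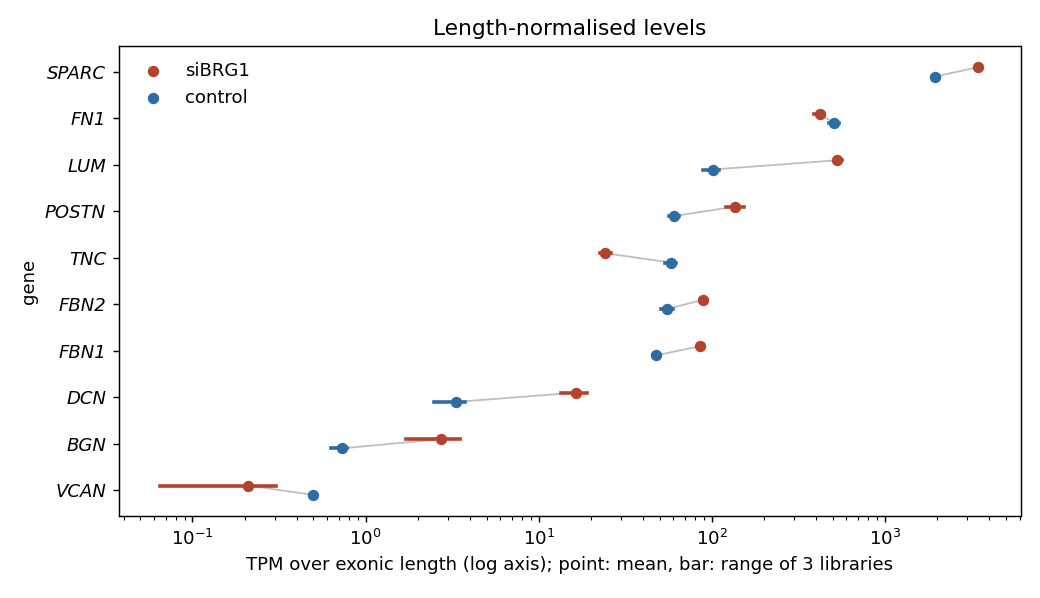
TPM over exonic length on a log axis for the 10 genes (siBRG1 in red above control in blue), with a point at the mean and a bar over the range of 3 libraries. SPARC is highest in both groups, VCAN is lowest, and LUM and DCN show the longest distance between the groups.

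The highest and lowest libraries of a group were often the same ones across the 10 genes. In siBRG1, replicate 2 had the highest value of 7 genes and the lowest of TNC, VCAN and SPARC, and replicate 3 had the lowest value of 6 genes. SMARCA4 was also highest in siBRG1 replicate 2 and lowest in replicate 3. Among control libraries, replicate 3 had the highest values of FBN1, FBN2, FN1, TNC and VCAN and the lowest of LUM, DCN, BGN, POSTN and SPARC. With 3 libraries a group this is a description only.

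The further genes of the same matrix systems were counted in 7 lists. Of 87 such genes tested, 48 were higher and 23 lower in siBRG1, with a median log2 ratio of 0.25. Together 81.6% were called, beside 72.6% of all genes tested (36.1% higher and 36.5% lower). The counts of each list below stand against those shares, and no list was tested as a set. Of 14 further leucine-rich proteoglycan genes only 4 were tested. PODN (log2 ratio 2.52, SE 0.250, adjusted p = 4.77e-10) and TSKU, which encode podocan and tsukushi, rose (log2 ratio of TSKU 0.58, SE 0.0691). The other 2, ECM2 (log2 ratio −0.82, adjusted p = 0.0673) and PODNL1, did not pass the test. ECM2 was called lower under 3 of the 15 alternatives, among them unstranded counts (log2 ratio −1.42, adjusted p = 0.00073). ASPN and OGN were also called lower with unstranded counts, but had 0 CPM in all 6 libraries in the stranded column used. Their calls thus rest on reads not counted as sense. Genes of microfibrils and elastic fibres, the partners of the fibrillins, held 11 of 14 that rose and none that fell, with a median log2 ratio of 0.84. Largest among them were FBLN1, which encodes fibulin-1, at 44.1 ± 4.16 CPM in siBRG1 and 12.6 ± 1.33 CPM in control, and LTBP2, whose product associates with fibrillin microfibrils, at 50.5 ± 3.64 CPM in siBRG1 and 14.6 ± 1.35 CPM in control (SD, n = 3). Their log2 ratios were 1.81 (SE 0.0839) and 1.80 (SE 0.0764). MFAP3, MFAP5 and FBLN5 did not pass, and the call of ADAMTSL4 as higher was lost under 3 of the 15 alternatives. With unstranded counts, 10 of 16 rose and 1, MFAP4, fell, which was called higher with no count filter.

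Among 17 other matricellular and adhesive glycoprotein genes, 12 rose and 3 fell, with a median log2 ratio of 0.26. The falls were those of THBS1, NOV and CYR61, and that of CYR61 was small (log2 ratio −0.17, SE 0.0369). THBS1 encodes thrombospondin-1 and averaged 461 ± 80.9 CPM for siBRG1 and 3478 ± 30.1 CPM for control (log2 ratio −2.91, SE 0.152, adjusted p = 5.41e-05). NOV, of the CCN family, had a log2 ratio of −1.38 (SE 0.0945). Among those that rose were VTN, the vitronectin gene (log2 ratio 2.35, SE 0.171), and MATN3, the matrilin-3 gene (log2 ratio 1.12, SE 0.0957). THBS4 and FSTL1 did not pass, and FSTL1 was called higher once trends with GC content and length were removed (log2 ratio 0.17). Some of the 12 rises depended on the setting. The call of CTGF was lost under 6 of the 15 alternatives and that of ECM1 under 2. That of THBS3 was lost with unstranded counts, where its log2 ratio went from 0.63 to 0.04. SPOCK3, also among the 12, averaged only 0.433 CPM in siBRG1 and 0.130 CPM in control.

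All 9 genes tested for hyaluronan and its binding proteins were called, 5 higher and 4 lower, where 72.6% of all genes tested were called. HAS2, a hyaluronan synthase gene, fell and averaged 0.947 ± 0.148 CPM for siBRG1 and 8.39 ± 1.36 CPM for control (log2 ratio −3.15, SE 0.220, adjusted p = 2.44e-13), and HAS3 had a log2 ratio of −1.28 (SE 0.186). CD44, the hyaluronan receptor gene (−0.56, SE 0.0370), and CEMIP2 (−0.16, SE 0.0457) were the other 2 with lower log2 values, and CEMIP2 moved to 0.00 once trends with GC content and length were removed (adjusted p = 0.940). Higher were HAPLN3, a link protein gene (log2 ratio 1.62, SE 0.138), HYAL2, a hyaluronidase gene (0.84, SE 0.0938), CEMIP, HMMR and TNFAIP6. TNFAIP6 had the largest log2 ratio, 3.18 (SE 0.420), at 1.58 ± 0.0593 CPM in siBRG1 and 0.166 ± 0.0740 CPM in control.

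Enzymes that build the chondroitin and dermatan sulfate chains of decorin, biglycan and versican went both ways, with 7 of 21 higher and 8 lower and a median log2 ratio of 0.05. CSGALNACT1, which starts chondroitin chains (log2 ratio 1.96, SE 0.125), and CHST14, a dermatan 4-O-sulfotransferase gene (0.76, SE 0.0691), rose. With unstranded counts the log2 ratio of CSGALNACT1 was 0.68. UST, a uronyl 2-sulfotransferase gene, and PAPSS2, which makes the sulfate donor, fell by 1.02 (SE 0.151) and 0.83 (SE 0.0396) on the log2 scale. Another 6 did not pass, among them B3GALT6, which was called higher under some alternatives. With GC and length trends removed, CHPF was called lower (log2 ratio −0.32) and CHST12 (0.32) and DSE (0.28) higher. There FAM20B lost its call as lower (adjusted p = 0.957, edgeR). Receptor genes of these matrix proteins held 7 of 14 that rose and 4 that fell, namely MET, SDC1, EGFR and SDC4. LRP1, an endocytic receptor gene, rose by a log2 ratio of 1.30 (SE 0.10), ITGB5, an integrin subunit gene, by 0.91 (SE 0.0429), and MET fell by 1.46 (SE 0.0457). SDC1, a syndecan gene, had a log2 ratio of −0.40 (SE 0.0475). Removing the trends with GC content and length gave −0.61 for SDC1, −0.10 for EGFR and −0.28 for CYR61 on the log2 scale. ITGA4, SDC2 and TLR2 did not pass. All 8 protease genes tested were called, where 72.6% of all genes tested were called. HTRA1, BMP1, FURIN and ADAMTS15 were higher and ADAMTS1, PCSK6, ADAMTS5 and TLL1 lower. ADAMTS1, a versican-cleaving protease gene, fell and averaged 57.4 ± 5.25 CPM for siBRG1 and 313 ± 9.88 CPM for control (log2 ratio −2.44, SE 0.0509, adjusted p = 9.44e-26). ADAMTS5, of the same family, had a log2 ratio of −0.97 (SE 0.0731). BMP1, whose protease trims many matrix precursors, rose by 0.93 (SE 0.0513) and HTRA1 by 0.99 (SE 0.0674). The call of PCSK6 was lost without siBRG1 replicate 2 (adjusted p = 0.0618), and that of TLL1 under 5 of the 15 alternatives.

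**Figure D5:**
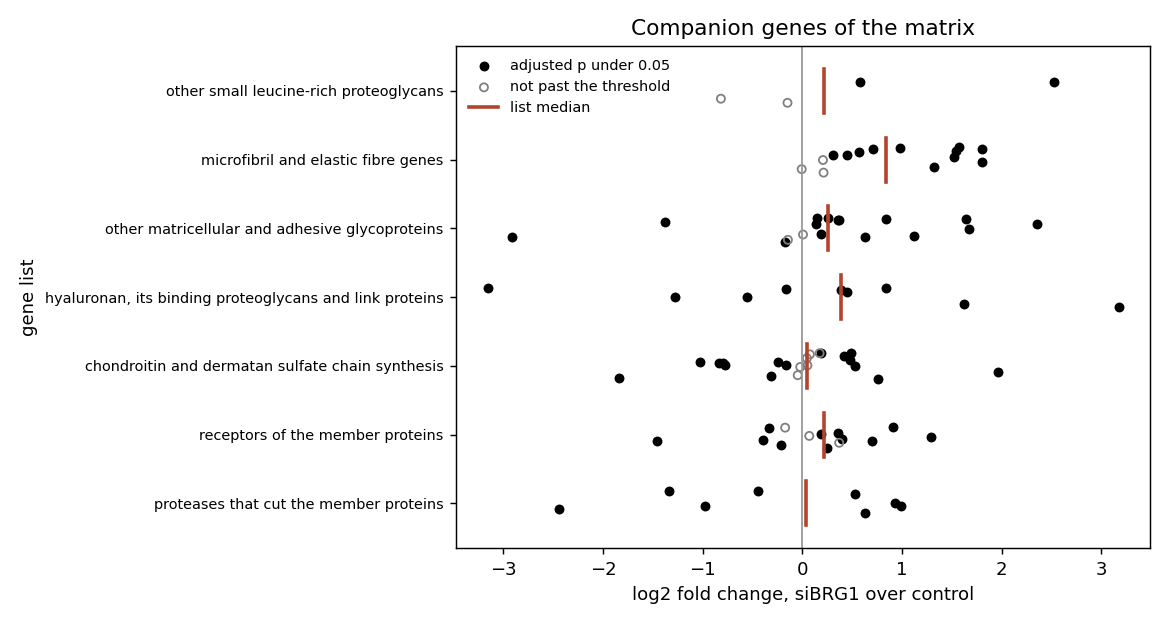
Log2 ratio, siBRG1 over control (x axis), of each gene tested in the 7 further lists (rows), filled where the adjusted p was under 0.05, with a red line at each list's median. The microfibril row lies on the right, with 11 of 14 called higher, and the enzyme, receptor and protease rows reach to both sides.

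Of the markers of stromal fibroblasts, none of them among the 10 genes, all 8 were tested, 6 rose and 1 fell, and their summed level ran from 4514 to 4849 CPM in siBRG1 and from 2677 to 2853 CPM in control. Most of the sum came from COL1A1, at 2536 ± 95.3 CPM in siBRG1 and 1955 ± 75.4 CPM in control, and COL3A1, at 1616 ± 98.3 CPM in siBRG1 and 294 ± 33.7 CPM in control (SD, n = 3), and COL3A1 rose the most. THY1 fell (log2 ratio −0.17, SE 0.0369), and COL6A3 did not pass (log2 ratio −0.38, SE 0.194). PDGFRA, FAP and COL6A3 were low in both groups, at 9.86, 9.85 and 3.03 CPM in siBRG1 and 7.66, 6.63 and 3.98 CPM in control. Summed epithelial markers ran from 3483 to 3738 CPM in siBRG1 and from 3940 to 4026 CPM in control. Summed levels of 5 smooth muscle markers were 18.7 to 20.8 CPM in siBRG1 and 30.9 to 34.4 CPM in control. MYH11 was at 0 CPM in siBRG1 and 0.0137 CPM in control. Of the 3 tested, TAGLN (log2 ratio −1.28) and CNN1 (−0.36) fell. ACTA2 rose (2.51), at 2.22 CPM in siBRG1 and 0.394 CPM in control. Summed levels of 5 endothelial markers were 15.1 to 21.3 CPM in siBRG1 and 17.4 to 20.1 CPM in control. Of the 3 tested, CDH5 rose (1.96), VWF fell (−0.69) and KDR did not pass. Summed levels of 6 immune markers were 9.83 to 10.5 CPM in siBRG1 and 4.10 to 5.50 CPM in control, with CD3E at 0 in every library. Of the 2 tested, CD14 rose (1.19) and PTPRC did not pass. The part of these marker levels in the changes of the 10 genes was not tested.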

How the data were processed

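RNA was measured in 6 libraries of 12Z cells, 3 siBRG1 and 3 control. Per the labels' protocols, 500 ng of total RNA went into each directional mRNA library. The authors deposited raw counts per gene for each library, unstranded and for either strand, and STAR, cutadapt, Trim Galore, FastQC and DESeq2 (no versions) and the build GRCh38.p12 are listed in the submitters' processing notes. No source used here gives the annotation release. Per the file headers, the authors' deposited table gives log2 fold changes, unshrunken and shrunken, and p-values with a mean signal and scores. Only its log2 fold changes and adjusted p-values were used.

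Symbols, lengths and coordinates came from GENCODE 29, which 58216 of 58336 identifiers matched without their version. The stranded column with the larger total was taken as sense. Reads on the other strand made up 5.96% to 6.18% of stranded gene counts per library. Entries that name no gene, 27.7% to 30.3% of all reads per library, were left out; 3 counts stood for 0.224 to 0.242 CPM in siBRG1 libraries and 0.0603 to 0.0746 CPM in control libraries.

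Differences were tested in edgeR 4.0.16 under R 4.3.3 (TMM, filterByExpr, robust quasi-likelihood, two-sided, Benjamini-Hochberg). The SE is the absolute log2 ratio (fold change) over the square root of F. Tested on simulated data for this comparison, with 200 of 15830 genes changed, 97.0% of log2 changes of 1 and 75.8% of 0.5 were recovered. The changed genes were drawn from those averaging above 1 CPM, about the level of BGN and VCAN. In the data 72.6% of genes were called, and recovery with changes that widespread was not tested. Shares were compared with exact permutation tests in scipy 1.17.1, 3 in one family, for which the Benjamini-Hochberg values were 0.15, 0.15 and 0.5, plus the BGN share given beside them. TPM were computed from counts and exonic lengths, and a further order used the longest transcript. Counts of replicates differed beyond sampling noise, with a chi-square over its degrees of freedom of 2.72 to 4.83.

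The 10 genes and the lists were chosen with earlier results of these data known. Named are SMARCA4, the 10 genes and, of each list, up to 2 genes higher and 2 lower with the largest called change and a mean of at least 50 counts, together with genes that make up a count of 5 or fewer. FBLN1, LTBP2 and most other list genes named follow that rule. HAUS7, HIST1H1B, SNORA73B and single markers, chosen after their values were seen, are named beside the results they touch. So are ASPN, OGN, MFAP4, ADAMTSL4, CTGF, ECM1, THBS3, SPOCK3, B3GALT6, CHPF, CHST12, DSE and FAM20B, also chosen after their values were seen. Of the symbols listed, ADAMTSL6 matched no identifier. Alternatives were DESeq2 1.42.0, DESeq2 size factors, other count filters, unstranded counts, control counts thinned to siBRG1 depth, protein-coding genes alone, removal of GC and length trends, a replicate block and leaving out each library.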

Additional observations from a re-analysis of the deposited data

How the results depend on the processing

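Over 15 alternatives, all 10 genes kept their direction and their call wherever they were tested, 149 of 149 results. BGN did not pass the filter of 50 counts in 3 libraries and has no value there, which left 9 of 9 called. Log2 ratios ranged from 2.14 to 2.32 for LUM, 1.97 to 2.37 for DCN, 1.47 to 1.98 for BGN, 0.90 to 1.08 for POSTN, 0.65 to 1.01 for FBN1, 0.46 to 0.80 for FBN2, 0.62 to 0.70 for SPARC, −0.50 to −0.17 for FN1, −1.49 to −1.37 for TNC and −1.75 to −0.96 for VCAN. The values of 1.01 for FBN1, 0.80 for FBN2 and −0.17 for FN1 came from removing GC and length trends, and the cause was not tested. Genes called over the whole table numbered 9691 to 12541, against 11498 as reported. With no count filter the median log2 ratio of all genes tested was −0.30, a shift of −0.297 with more low-count genes tested. Companion genes called numbered 67 to 74, against 71. With the replicate block, 11194 genes were called, all 10 genes kept their calls and 71 companion genes were called. Deviations of libraries that share a replicate number correlated across genes at −0.0126, 0.0220 and 0.00898, so the numbers were not taken as a pairing. Leaving out each library in turn, the difference in the DCN share ran from −1.29 to 0.27 percentage points, with the positive value without siBRG1 replicate 3. The depth limits BGN and VCAN, with 63 and 30 counts over the siBRG1 libraries.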

Other observations

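Genes next to the 10 on the chromosome went both ways. TNC lay between TNFSF15, 213 kb away, and PAPPA, 1036 kb away. TNFSF15, a TNF family cytokine gene, also fell and averaged 0.346 CPM for siBRG1 and 2.24 CPM for control (log2 ratio −2.63, SE 0.406, adjusted p = 1.51e-06, edgeR). Its siBRG1 level was close to the 0.224 to 0.242 CPM that 3 counts stood for. PAPPA, a protease gene of IGF binding proteins, rose (log2 ratio 0.32, SE 0.0578). VCAN, which fell, lay between XRCC4 and EDIL3, a DNA repair gene and a secreted integrin ligand gene, which rose by log2 ratios of 0.90 (SE 0.0817) and 1.10 (SE 0.0576). FBN1 lay between DUT, a nucleotide metabolism gene that rose by 0.76 (SE 0.0403), and CEP152, a centriole gene that fell by 0.58 (SE 0.0592). FBN2 lay 68.2 kb from SLC12A2, an ion cotransporter gene that fell by 1.15 (SE 0.0595). On the other side of FBN2, ISOC1 did not pass. Beside FN1, which fell, ATIC fell (log2 ratio −0.30) and MREG did not pass. Beside POSTN, which rose, SUPT20H (−0.19) and TRPC4 (−0.39) fell. CCNQ beside BGN fell (−0.40), and TREX2 did not pass. Neither neighbour of SPARC, SLC36A1 or ATOX1, passed. Beyond LUM and DCN, ATP2B1 (0.11) and BTG1 (0.43) rose. These are the nearest protein-coding genes without overlap that passed the count filter. They were chosen for position, and no relation to the 10 genes was tested.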
